A study of Mus musculus with 2 samples.

Results

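The autosomal urea cycle genes are 6 mouse genes, Nags, Cps1, Slc25a15, Ass1, Asl and Arg1, and their CTCF binding was read from ChIP-seq of newborn liver. For each gene, all CTCF peaks were taken whose summit lay in the gene or within 50 kb of it, which gave 50 of the 57220 peaks in the optimal list. The genes were chosen by function among 20807 autosomal protein-coding genes and not by their binding, though with earlier results of these data known. The series has 1 group, liver of B6NCrl mice at postnatal day 0, pulverized and pooled over several dissections, with 2 replicates, no treatment and no second genotype. By their labels both replicates come from the same biosample and donor entry, and sex was not recorded. Their spread may therefore be technical, and it covers no difference between litters. Control libraries to which the labels point were not analysed here. The tissue label could not be checked against marker expression, since these files hold binding sites and no RNA, and a signal from bulk liver cannot be assigned to one of its cell types. The signal of a peak is the value the authors deposited, on a scale that is not stated, and over the whole optimal list it ran from 4.12 to 701.8. Read depth is unknown. All positions are on mm10, and genes are those of GENCODE M21.

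The urea cycle converts ammonia, which is toxic to the brain, into urea in the hepatocytes around the portal veins. Nags makes N-acetylglutamate, without which the mitochondrial enzyme Cps1 cannot join ammonia and bicarbonate to carbamoyl phosphate. The X-linked enzyme Otc then makes citrulline, and Slc25a15 exchanges citrulline for ornithine across the inner mitochondrial membrane. In the cytosol Ass1 joins citrulline to aspartate, Asl cleaves the product to arginine and fumarate, and Arg1 splits arginine into urea and ornithine. CTCF binds DNA at a directional motif and halts cohesin there, which anchors chromatin loops. Loops most often join motifs that point toward each other.

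The sequences below carry the strongest peak of each gene in the optimal list and the other peaks described most closely. Capitals mark the best match to the 14-base CTCF core within 50 bp of the summit, read 5′ to 3′ on the strand named, and the coordinates are those of the capitals.
Nags, 6.92 kb upstream, chr11:102138594-102138607, reverse strand: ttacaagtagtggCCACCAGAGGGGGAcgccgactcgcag
Cps1, 21.1 kb inside, chr1:67144139-67144152, forward strand: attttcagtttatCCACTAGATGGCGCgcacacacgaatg
Cps1, 58.4 kb inside, chr1:67181370-67181383, forward strand: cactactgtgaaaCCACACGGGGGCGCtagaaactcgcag
Slc25a15, 34.6 kb upstream, chr8:22433154-22433167, reverse strand: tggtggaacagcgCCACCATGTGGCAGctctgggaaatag
Slc25a15, 3′ UTR, chr8:22377116-22377129, reverse strand: gcgttagaCCTCTGGGGGGCAGcagaggac
Ass1, 12.9 kb inside, chr2:31483117-31483130, forward strand: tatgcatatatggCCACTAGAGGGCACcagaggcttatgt
Asl, 5.38 kb inside, chr5:130023851-130023864, forward strand: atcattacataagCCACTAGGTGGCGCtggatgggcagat
Asl, 29.95 kb from the 5′ end, beyond the gene, chr5:129999287-129999300, forward strand: gcctgctgTCACCAGGTGGCAGcaaaggac
Arg1, 57.6 kb from the 5′ end, beyond the gene, chr10:24869830-24869843, forward strand: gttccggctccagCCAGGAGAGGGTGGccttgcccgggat
The first Cps1, the Ass1 and the first Asl sequences match the core without a mismatch. The others have 1 mismatch, at Slc25a15 upstream and at the second Asl site, or 2.

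CTCF binding differed widely between the 6 genes. Ass1 and Asl each had 14 peaks in their windows, Nags had 8, Slc25a15 had 7, Arg1 had 5 and Cps1 had 2. Per 100 kb of window the order was Asl with 11.9 peaks, Ass1 with 9.30, Nags with 7.70, Slc25a15 with 5.69, Arg1 with 4.45 and Cps1 with 0.961. The median of the 6 genes was 6.69 peaks per 100 kb, compared with 4.30 over all autosomal protein-coding genes. All 6 genes had at least 1 peak in the window, as had 88.7% of all autosomal protein-coding genes. A peak inside the gene body was found in 5 of the 6, all but Arg1, against 55.2% of all genes. That share was not matched for gene length. In genes whose length differed by at most 1.2 times, the median was 3 body peaks for Cps1 and 2 for Ass1. It was 1 for Asl and Slc25a15, and 0 for Nags and Arg1. The genes themselves had 2, 8, 2, 2, 1 and 0 body peaks, in that order. A promoter peak, meaning a summit no farther than 1 kb from a transcript start of the gene, was found at 2 of the 6, Ass1 and Asl, against 37.4% of all genes. No test was made between the 6 genes and the rest, since a set of 6 chosen with earlier results of these data known has no independent test here.

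**Figure D1:**
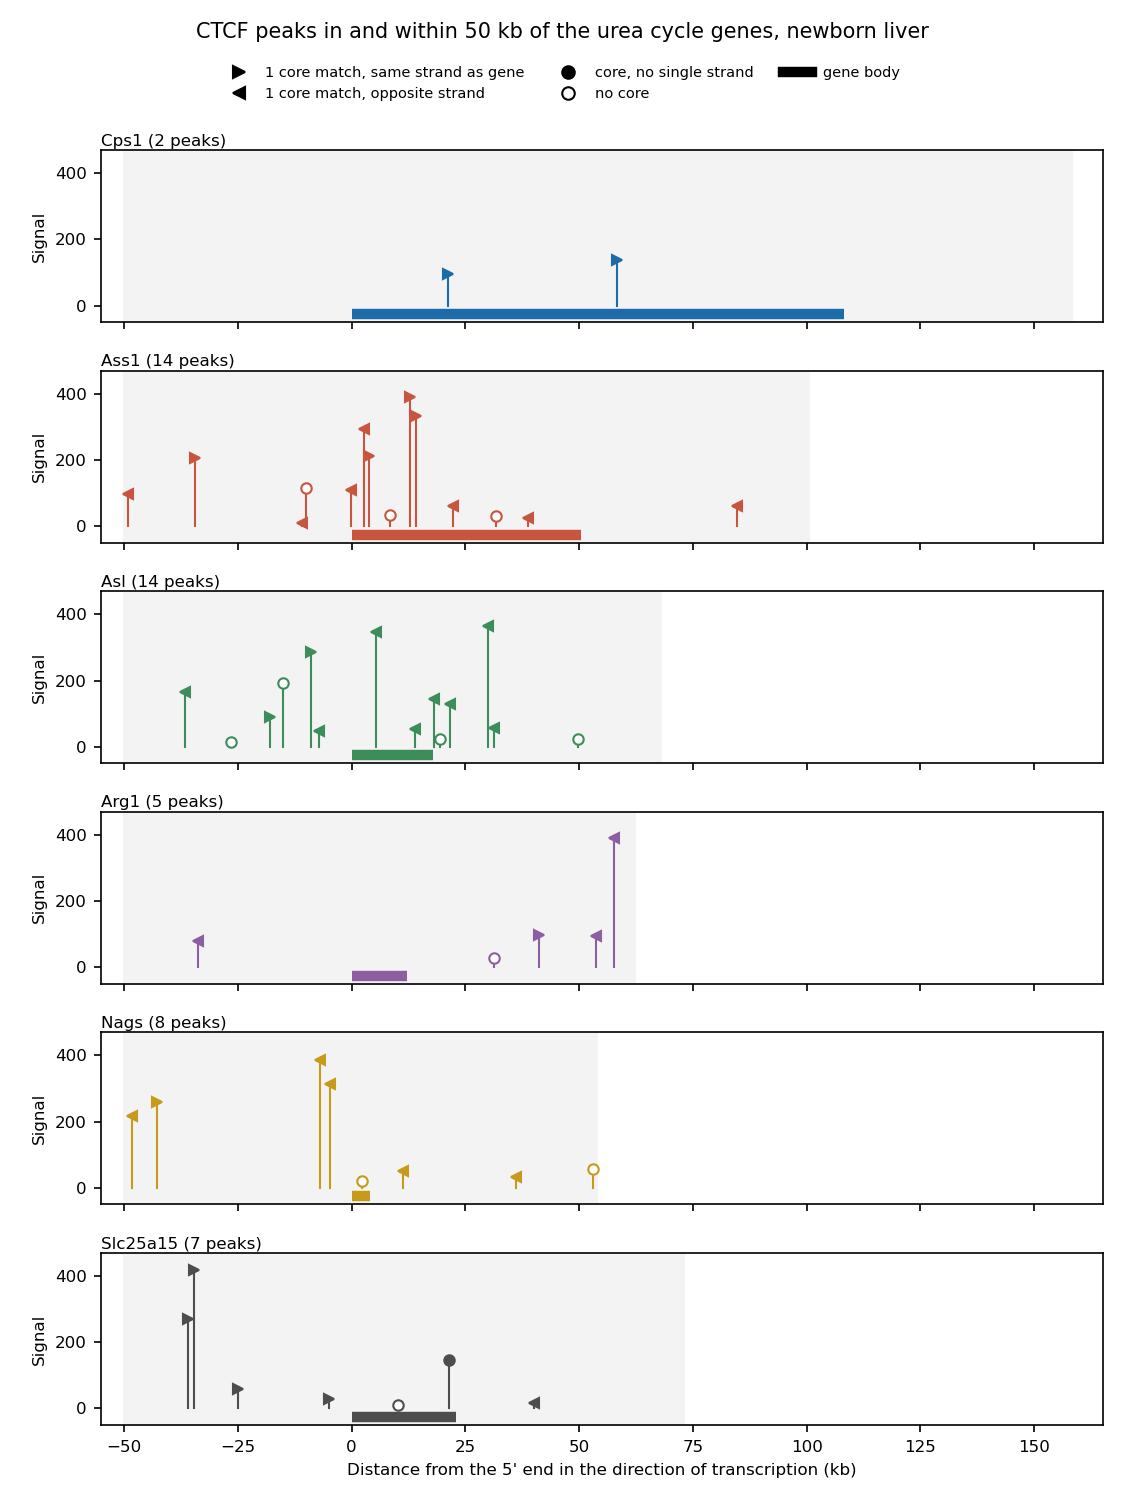
Each panel shows 1 gene, with the distance from its 5′ end along the direction of transcription (kb) on the horizontal axis and the deposited signal on the vertical axis. Each stem is an optimal peak, its marker gives the strand of the core relative to the gene, open circles have no core, the thick bar is the gene body and the grey band is the window of 50 kb on either side. Ass1 and Asl hold 14 peaks each and Cps1 holds 2, both inside the gene.

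Nags lies on the forward strand of chromosome 11 from 102145513 to 102149477, and its strongest binding was upstream. The peak 6.92 kb upstream of the 5′ end had a signal of 384.9 in the optimal list, with 194 in replicate 1 and 193 in replicate 2. A further peak 4.83 kb upstream had 312.3, with 157 in replicate 1 and 154 in replicate 2. Both are intergenic, both have their core on the reverse strand, pointing away from Nags, and they lay at nearly the same level in the replicates. The peak inside the gene, in a noncoding exon 2.25 kb from the 5′ end, was weak, with a signal of 20.5, and had no core. Its signal was 10.3 in replicate 1 and 7.73 in replicate 2. Toward the upstream edge of the window, a peak of 259.7 lay 42.8 kb and one of 216.4 lay 48.3 kb from the 5′ end. These 4 upstream peaks are the 4 strongest of the window, and the others ran from 20.5 to 57.3. Downstream, a peak of 50.65 lay 309 bp from a start of Tmem101, the gene 3.07 kb beyond Nags, and one of 57.3 lay 381 bp from a start of Hdac5, a histone deacetylase gene. Nags has a CpG-rich promoter, and no optimal peak lay within 1 kb of a start.

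Cps1, on the forward strand of chromosome 1 from 67123026 to 67231259, is the longest of the 6 genes (108.2 kb) and had the fewest peaks. Both lie in introns, at 21.1 and 58.4 kb from the 5′ end, and both have their core on the strand of the gene. The first had a signal of 96.0, with 53.2 in replicate 1 and 44.6 in replicate 2. The second had 136.8, with 65.7 in replicate 1 and 72.8 in replicate 2. The peak with the lower signal is the one over the core without a mismatch, and the other core has 2 mismatches. The nearest peak outside the gene was 61.4 kb upstream (signal 302.7), and the nearest downstream was 247 kb away (signal 19.6). The gap between these outer peaks was 416.6 kb, at percentile 87.5 of the gaps around autosomal protein-coding genes, whose median was 73.9 kb. This gap includes the 108.2 kb of the gene itself, and the percentile was not matched for gene length. The bordering protein-coding genes are also distant, Lancl1 at 84.2 kb and Erbb4, a receptor tyrosine kinase gene, at 800.9 kb. Its 2 gene body peaks compare with a median of 3 in the 971 autosomal protein-coding genes whose length differed from its own by at most 1.2 times.

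Slc25a15, on the reverse strand of chromosome 8 from 22375551 to 22398597, had the peak with the highest signal of all 6 windows in the optimal list and in replicate 2. In replicate 1 the strongest Ass1 peak was higher, at 215. The Slc25a15 peak lay in intergenic sequence 34.6 kb upstream of the 5′ end, beyond the mitochondrial ribosomal protein gene Mrps31, with a signal of 419.3, and with 205 in replicate 1 and 214 in replicate 2. A second peak 1.44 kb further upstream had 269.8, with 145 in replicate 1 and 124.5 in replicate 2. All 4 upstream peaks have their core on the strand of the gene, pointing toward it, and the nearest of them, 4.86 kb away, was weak (29.7) and stood 702 bp from a start of the noncoding gene Gm45452. Inside the gene, the 3′ UTR carried a peak of 146.7, with 83.1 in replicate 1 and 65.0 in replicate 2, where 2 core matches were equally good. The other gene body peak, in an intron, had a signal of 11.5 and no core, and its signal was 6.79 in replicate 1 and 3.40 in replicate 2. That peak had the widest replicate spread of all the matched window peaks, a mean percentile of 63.7 ± 20.1 within the replicate lists (SD, n = 2), and it was not in the conservative list.

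Ass1, on the forward strand of chromosome 2 from 31470207 to 31520672, had binding at its promoter and at several places in its body. It was the only one of the 6 genes with a peak within 1 kb of the 5′ end, compared with 29.2% of all autosomal protein-coding genes. That peak lay 116 bp upstream, outside any annotated exon, with a signal of 109.5, and with 60.8 in replicate 1 and 48.6 in replicate 2. Its whole sequence is shown on the forward strand, because it is the only peak at a 5′ end, with capitals for the core, which has 2 mismatches and reads on the reverse strand.
Ass1 promoter peak, chr2:31470017-31470163: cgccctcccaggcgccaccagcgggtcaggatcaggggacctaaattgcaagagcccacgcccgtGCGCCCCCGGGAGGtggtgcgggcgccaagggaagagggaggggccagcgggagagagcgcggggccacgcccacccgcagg
The gene body held 8 peaks, all in introns. Over 1583 autosomal protein-coding genes whose length differed from that of Ass1 by at most 1.2 times, the median was 2, and 21 genes had at least 8. The 4 strongest lay within 14.2 kb of the 5′ end. The strongest, 12.9 kb from it, had a signal of 391.1, with 215 in replicate 1 and 177 in replicate 2. The next, at 14.2 kb, had 331.7, with 168 in replicate 1 and 164 in replicate 2. The peak at 2.66 kb had 294.4, with 146 in replicate 1 and 147 in replicate 2, and the one at 3.92 kb had 211.3, with 108 in replicate 1 and 101.5 in replicate 2. The remaining body peaks were lower, at 35.3 between them, 8.41 kb from the 5′ end, and at 60.0, 30.7 and 23.7 further into the gene. The first of these had 19.5 in replicate 1 and 14.2 in replicate 2, and the last had 10.4 in replicate 1 and 12.1 in replicate 2. Upstream, 4 peaks lay in Hmcn2, a gene of an extracellular matrix protein, with signals from 11 to 205.8, and downstream a single peak of 62.3 lay 34.15 kb beyond the 3′ end.

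Asl, on the reverse strand of chromosome 5 from 130011258 to 130029247, had the densest window of the 6 genes. Its 2 gene body peaks are both near internal starts of Asl and not at the 5′ end. The stronger, 5.38 kb from the 5′ end in a noncoding exon and 429 bp from a start, had a signal of 347.6, with 158 in replicate 1 and 193 in replicate 2. The other, in an intron 13.95 kb from the 5′ end and 576 bp from a start, had 53.5, with 28.9 in replicate 1 and 22.4 in replicate 2. A further peak lay only 105 bp beyond the 3′ end of the gene, with a signal of 143.2, and with 74.7 in replicate 1 and 67.95 in replicate 2. The strongest peak of the window in the optimal list, 363.6, fell in an untranslated exon of Gusb, the gene of the lysosomal enzyme beta-glucuronidase, with 189 in replicate 1 and 176.5 in replicate 2. It was above the Asl body peak of 347.6 in replicate 1 and below it in replicate 2, so their order was not the same in both. On the other side, Crcp, which encodes a subunit of RNA polymerase III, begins 43 bp from the 5′ end of Asl and is read in the opposite direction. No optimal peak lay at these adjoining 5′ ends. The introns of Crcp held 5 peaks, of which the strongest had a signal of 287.4. The peak 1.49 kb beyond the 3′ end, with a signal of 23.8, was the only one of the 50 with no match in a replicate: replicate 1 had 17.8 and replicate 2 had no summit within 100 bp.

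Arg1, on the reverse strand of chromosome 10 from 24915221 to 24927484, was the only gene of the 6 with no peak in its body. The median was 0 body peaks over 1981 autosomal protein-coding genes whose length differed from its own by at most 1.2 times. The nearest peak to its 5′ end was 31.35 kb away, on the far side of the gene, in an intron of Med23, a Mediator subunit gene, with a signal of 29.3 and no core. It had 17.2 in replicate 1 and 12.99 in replicate 2. Med23 ends 1.54 kb from the 3′ end of Arg1. Upstream, the single peak of the window was 33.8 kb away with a signal of 80.35, and with 40.5 in replicate 1 and 39.5 in replicate 2. The strongest peak, 390.2, with 198 in replicate 1 and 191 in replicate 2, lay 148 bp from a start of Med23 and 45.4 kb from Arg1. Of the 5 window peaks, 4 were on the Med23 side, the other 2 of them in Med23 introns with signals of 97.75 and 93.8.

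The windows with most peaks stood in the upper part of the range over all genes. Ass1 and Asl, with 14 peaks each, were at percentile 92.8 of 20807 autosomal protein-coding genes, whose median was 6 peaks. Nags was at percentile 65.6, Slc25a15 at 58.1, Arg1 at 41.7 and Cps1 at 19.8. Longer genes have wider windows, and per 100 kb the percentiles were 94.8 for Asl, 86.7 for Ass1, 78.5 for Nags, 63.5 for Slc25a15, 51.5 for Arg1 and 16.8 for Cps1. The order is thus not that of gene length, since Cps1 is the longest and Nags, at 3.96 kb, the shortest. The distance from the 5′ end to the nearest peak had a median of 5.12 kb over the 6 genes, compared with 5.33 kb over all genes.

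**Figure D2:**
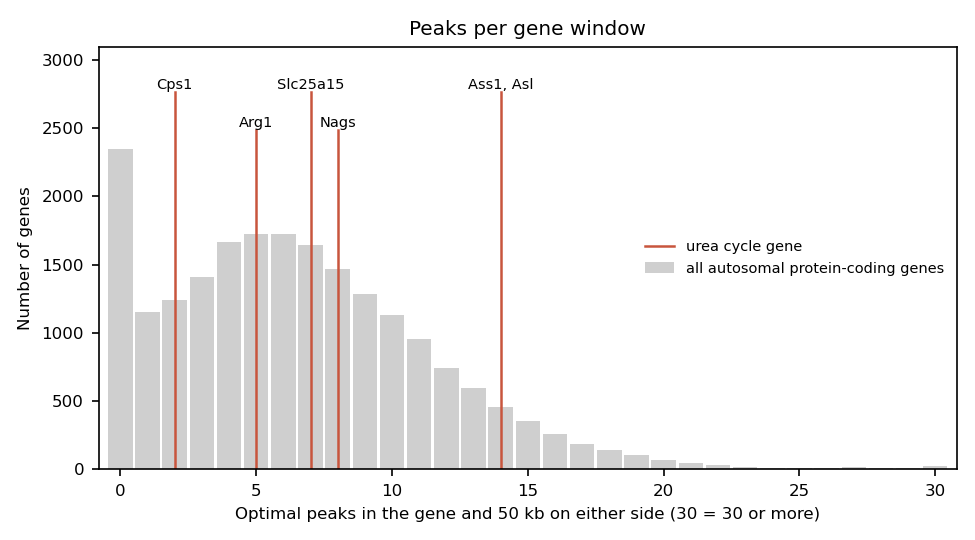
Lines mark the urea cycle genes over the distribution of all 20807 autosomal protein-coding genes, with the number of optimal peaks in the gene and 50 kb on either side on the horizontal axis and the number of genes on the vertical axis. Cps1 has 2 peaks, below the median of 6, while Ass1 and Asl have 14 each.

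Each class of promoter held 1 gene with a promoter peak, though the peaks of Asl were not at its 5′ end. The promoters of Nags, Asl and Slc25a15 are CpG-rich, defined here by 2 limits on the sequence 500 bp to either side of the 5′ end: 50% or more G and C, and a CpG ratio, observed to expected, of 0.6 or more. Of these 3 genes, 1, Asl, had a promoter peak, against 54.2% of all autosomal genes with such promoters. The class describes the 5′ end only, while a promoter peak was counted at any start. The Asl peaks lay near internal starts, 5.38 and 13.95 kb from the CpG-rich 5′ end. None of these CpG-rich genes had a peak within 1 kb of the 5′ end. Cps1, Ass1 and Arg1 have CpG-poor promoters, and of these 1, Ass1, had a promoter peak, against 23.2%. The Ass1 promoter lay nearest to the limit among these 3, with a GC share of 62.9% and a CpG ratio of 0.565. The CpG ratio was 0.203 at Cps1 and 0.237 at Arg1.

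With at most 2 mismatches, 39 of the 50 window peaks had the core motif no farther than 50 bp from the summit (78%, exact 95% interval 64.0 to 88.5), compared with 71.2% of all optimal peaks. The interval covers counting error over peaks only and includes the share of the whole list. In windows displaced by 1 kb, 1 of 50 had it, compared with 2.98% of the whole list. By class, 12% of the 50 window peaks had no mismatch, against 9.616% of all optimal peaks, and 28% had 1, against 28.76%. Exactly 2 mismatches were found in 38%, against 32.85%, and exactly 3 in 12%, against 19.02%. The share of window peaks was thus the higher one at 0 and 2 mismatches and the lower one at 1 and 3. The comparison with the whole list therefore depends on the limit of 2 mismatches. Median signal was lower with each added mismatch, from 0 to 3. The 6 window peaks without a mismatch had a median signal of 194.7, the 14 with 1 mismatch 174.5, the 19 with 2 mismatches 91.1 and the 6 with 3 mismatches 46.3. Over all optimal peaks the same medians were 228.1, 118.2, 62.2 and 42.2. Peaks with a core without a mismatch ranged from 96.0 at Cps1 to 391.1 at Ass1. Peaks of 390.2 at Arg1 and 384.9 at Nags had 2 mismatches.

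**Figure D3:**
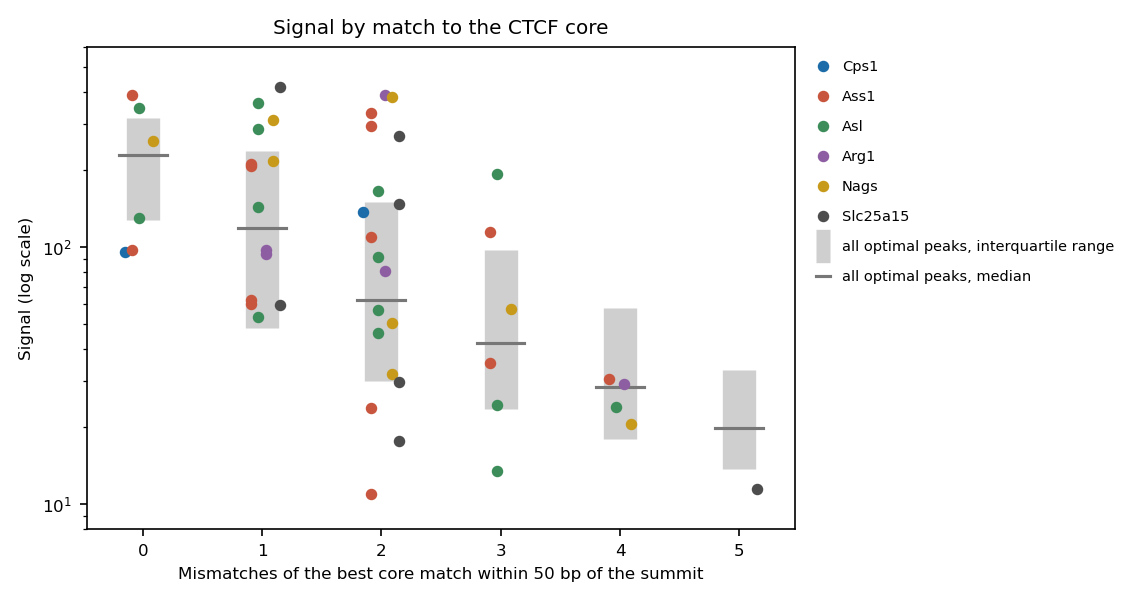
Points are the 50 window peaks, coloured by gene, with the mismatches of the best core match on the horizontal axis and the deposited signal on a log vertical axis. Grey bars and lines give the interquartile range and the median of all optimal peaks. The points without a mismatch span 96.0 to 391.1, and the point with 5 mismatches, at Slc25a15, has 11.5.

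Of the 50 window peaks, 16 (32%, exact 95% interval 19.5 to 46.7) had their summit in soft-masked repeat sequence, compared with 22.4% of all optimal peaks. Asl had 5 of these, Ass1 and Slc25a15 had 4 each, Nags had 2, Arg1 had 1 and Cps1 had none.

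Most neighbouring cores within a window pointed the same way. Counting peaks with a single best core match, Asl had 8 of 10 on the forward strand, with 7 of them in an unbroken row from the Gusb side into Crcp. Ass1 had 7 of 11 on the reverse strand, Nags 5 of 6 and Slc25a15 4 of 5, Arg1 had 3 of 4 on the forward strand, and Cps1 both. Of the 32 neighbouring pairs within windows, 21 pointed the same way (65.6%, exact 95% interval 46.8 to 81.4), compared with 52.1% of 33798 neighbouring pairs at most 100 kb apart in the whole list. The interval includes the share of the whole list, and neighbouring pairs share a peak and are not independent. Convergent pairs made up 6 of the 32 (18.75%, exact 95% interval 7.2 to 36.4) and divergent pairs 5 (15.6%, 5.3 to 32.8). The shares over the whole list were 22.7% convergent and 25.2% divergent, each within its interval.

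The nearest cores outside a gene faced each other across 1 of the 6 genes. Only Slc25a15 lay between a forward core on its left, 17.1 kb away with a signal of 17.6, and a reverse core on its right, 4.86 kb away with a signal of 29.7. The count of 1 of 6 compares with 27.6% of all autosomal protein-coding genes. Across Arg1 the nearest cores pointed away from each other, at 29.0 kb (signal 97.75) and 33.8 kb (signal 80.35). At Cps1 and Asl both nearest cores were forward, and at Ass1 and Nags both were reverse. Both flanking peaks of Slc25a15 were weak. The gene also lay between facing cores in the conservative list and among the stronger 50% of the optimal peaks, but not between this same pair. The left peak of 17.6 was in neither, and the right peak of 29.7 was not among the stronger 50%. The count was 2 without replicate 1, where Ass1 joined, 2 among the stronger 50%, where Asl joined, and 3 of 6 with at most 1 mismatch. With only 6 genes and a count that moved with the setting, the count of 1 cannot be read as low. The share of all genes was computed with at most 2 mismatches only.

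The replicates gave near-equal signals at the strong window peaks. Of the 50, 49 (98%, exact 95% interval 89.35 to 99.95) had a summit within 100 bp in both replicate lists, compared with 97.1% of all optimal peaks. The optimal list was made from these same replicates, so the match is no independent check. After centring on the median of all peaks, the log2 ratio of replicate 1 over replicate 2 had an SD of 0.17 over the 29 window peaks in the stronger 50% of the optimal list. It was 0.57 over the 20 matched peaks among the weaker. Over the whole list the same SDs were 0.22 and 0.66. The largest ratios were 0.94 at the weak Slc25a15 intron peak, 0.91 at a peak of 46.4 in Crcp near Asl and -0.92 at a peak of 32.1 downstream of Nags. Among the strong peaks, the Asl gene body peak of 347.6 was lower in replicate 1 (-0.34) and the Ass1 peak of 391.1 higher (0.22).

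**Figure D4:**
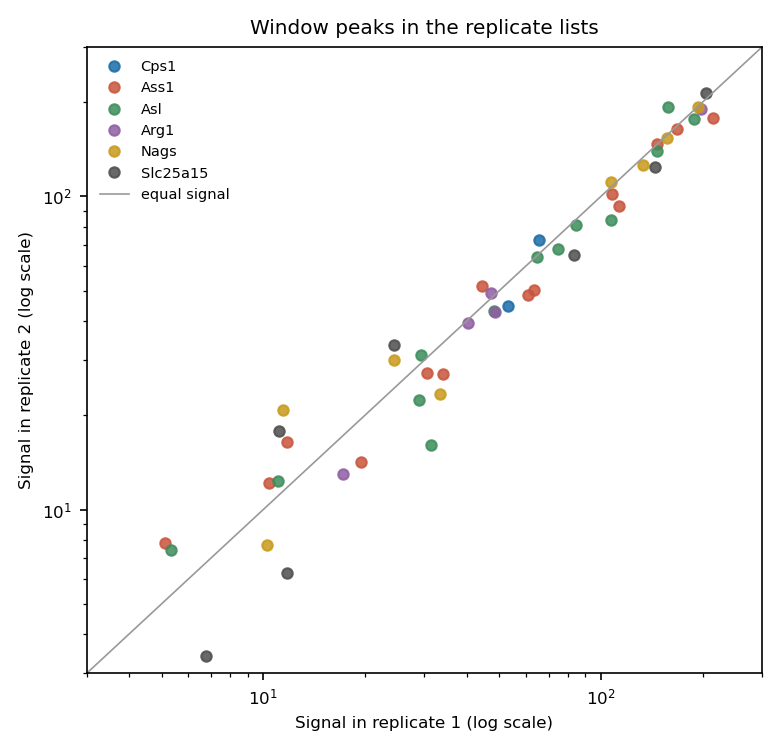
Each point is 1 of the 49 window peaks matched in both lists, coloured by gene, with the signal in replicate 1 on the horizontal and in replicate 2 on the vertical axis, both on log scales. The grey line marks equal signal. Strong peaks lie close to the line, such as 198 and 191 at Arg1, and weak ones scatter around it, such as 6.79 and 3.40 at Slc25a15.

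The median signal of the window peaks was 96.7, compared with 71.2 over all optimal peaks, and their median percentile within the optimal list was 57.9. The strongest 10% of the list held 8 of the 50, and the weakest 10% held 4. Of these 8, Ass1, Asl and Nags had 2 each, Arg1 and Slc25a15 had 1 each, and Cps1 had 0. By position, 27 of the 50 summits lay in introns, 16 in intergenic sequence, 3 in coding exons, 2 in noncoding exons and 2 in UTRs. The same shares were not computed over the whole list, so these counts cannot be read as particular to the windows. The 15 peaks in the bodies of the 6 genes included 11 with the core (73.3%), near the 71.2% of all optimal peaks. The share over gene body peaks of all genes was not computed.

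Of 10 other genes of nitrogen handling, 5 had a promoter peak, at Glud1 (glutamate dehydrogenase, signal 28.0), Car5a (a mitochondrial carbonic anhydrase, 178.4), Got1 (cytosolic aspartate aminotransferase, 17.9), Got2 (the mitochondrial form, 371.2) and Oat (ornithine aminotransferase, 201.8). Otc, Slc25a13 (the aspartate and glutamate carrier citrin), Arg2, Gls2 (glutaminase) and Glul (glutamine synthetase) had none. Among the 9 autosomal genes of the 10 the count was 5, set beside the 37.4% of all autosomal protein-coding genes. Of these 9, 4 had the peak at the 5′ end, set beside 29.2%. The number of window peaks ran from 1 at Glul to 13 at Car5a. The X-linked Otc, the cycle enzyme outside the autosomal set, had 2 window peaks, neither with the core nor in the gene body.

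Of the window peaks, those just inside the limit of 50 kb were at 49.1 kb from Ass1 (97.3), and at 49.0 kb (57.3) and 48.3 kb (216.4) from Nags. The peaks just outside were at 50.6 kb from Arg1 (34.45), 51.2 kb from Asl (40.0) and 52.0 kb from Nags (38.5).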

How the data were processed

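CTCF ChIP-seq peak lists of 1 group with 2 replicates were used. The authors deposited the signal of each peak in narrowPeak lists on mm10. Per the labels and the texts deposited with the samples, each replicate list was derived from that replicate's alignments plus 1 file whose kind is not named, and the optimal and conservative lists were made from both replicate lists and a pooled list by the irreproducible discovery rate (IDR). The aligner and the peak caller are not given in those texts or labels. Each replicate list holds 300000 peaks. Signals were compared within a list, as percentiles of rank (100 is the strongest) or as replicate ratios centred on the median of all peaks. The 1.2-fold limit on gene length was set after the values were seen.

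Summits were set against GENCODE M21 genes, and the GRCm38 sequence from RefSeq was searched for the 14-base CTCF core on both strands, at most 2 mismatches. Replicate matches had summits within 100 bp. Python 3.11.15, NumPy 2.4.6 and SciPy 1.17.1 were used. The motif search was tested on simulated data. The 95% intervals are Clopper-Pearson (exact) and reflect counting alone. No p-value was computed. All 6 genes, with each one's strongest peak, the peak nearest to its 5′ end and its gene body peaks, bordering genes and 10 further genes of nitrogen handling are reported. The genes, lists and alternatives were chosen with earlier results of these data known. The pooled list was not used.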

Additional observations from a re-analysis of the deposited data

How the results depend on the processing

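No paired analysis was possible because there is 1 group. Of 43 alternative settings, 20 left a result within its limit (1.5 times for a count, 1 SD between replicates for a core share or percentile, the exact interval for the matched share) and 23 moved it. The window held 29 peaks in the stronger 50% of the list, 25 within 10 kb and 80 within 100 kb, against 50. With 1 replicate left out, the list held the 57220 strongest peaks of the other replicate, with no IDR step. Promoter genes numbered 1 at 5′ ends and 4 within 5 kb, and ran from 2 to 3 with 1 replicate left out, as Nags joined on replicate 2 alone. Gene body counts ran from 4 to 5 with 1 replicate left out. The core share was 93.1% in that stronger 50%, 80% within 10 kb, 76.2% within 100 kb, 40% with at most 1 mismatch, 90% with 3, 76% within 25 bp, and 76% to 77.1% with 1 replicate left out. The matched share was 100% in that stronger 50% and within 200 bp, and 88% against the strongest peaks of each replicate. Genes between facing cores numbered 2 in that stronger 50%, 3 with at most 1 mismatch, and 1 to 2 with 1 replicate left out. The median percentile was 56.4 in the conservative list, 56.2 in that stronger 50%, 61.1 within 10 kb, 56.8 within 100 kb, and 57.4 to 58.8 with 1 replicate left out. The causes were not tested, beyond the fewer or more peaks that these settings keep. Depth is unknown, so no limit could be set from it. With replicate 2 alone, Nags also had no body peak, and Ass1 lay between facing cores.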

Other observations

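Among the 50 peaks in the urea cycle windows, 7 had a core that began with CCAGAAG, a start noticed in these sequences and then counted over the whole list with the same core search on both strands, so it is a description. It was found at 14% of window peaks and at 14.2% of all optimal peaks. A peak is called repeat-masked here if its summit base is soft-masked, and the masking of the core itself was not read. Of the 7, 6 were repeat-masked, and of the 8111 such peaks in the whole list 85.2% were, compared with 12.1% of all other optimal peaks. B2 elements, short interspersed repeats of rodents, are known to carry CTCF motifs, but the repeat family was not annotated here. The 7 are shown because their flanks can be compared, with the 14-base core in capitals and its mm10 coordinates.
Ass1, signal 211.3, chr2:31474126-31474139, forward strand: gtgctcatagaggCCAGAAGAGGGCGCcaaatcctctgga
Ass1, signal 60.0, chr2:31492514-31492527, reverse strand: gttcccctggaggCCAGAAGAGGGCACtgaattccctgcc
Asl, signal 53.5, chr5:130015297-130015310, forward strand: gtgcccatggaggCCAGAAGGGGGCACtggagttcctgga
Asl, signal 46.4, chr5:130036500-130036513, forward strand: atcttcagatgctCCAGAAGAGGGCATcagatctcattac
Asl, signal 91.1, chr5:130047229-130047242, reverse strand, not repeat-masked: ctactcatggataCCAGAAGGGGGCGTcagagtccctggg
Nags, signal 50.65, chr11:102156702-102156715, reverse strand: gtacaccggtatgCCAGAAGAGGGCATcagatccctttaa
Nags, signal 32.1, chr11:102181540-102181553, reverse strand: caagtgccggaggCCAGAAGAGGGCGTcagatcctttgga
Their median signal was 53.5, compared with 50.1 for all 8111. The peak at 211.3, in an Ass1 intron, is the strongest of the 7. Of the other 43 window peaks, 10 were repeat-masked (23.3%).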
